A study of Mus musculus with 8 samples.

Results

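Genes of DNA replication and mitosis were followed in 8 mammary tumours, 4 from MMTV-PyVT/HdhQ111/Q111 mice and 4 from MMTV-PyVT/HdhQ7/Q7 mice, each hybridised to its own Affymetrix Mouse Exon 1.0 ST array. The set held 55 listed genes, taken as the 22 genes that copy DNA, the 23 that carry a cell through mitosis and 10 cyclins, transcription factors and proliferation markers that tie both together. A gene was measured where a row of the deposited table carried its symbol and no other, and the row with the highest mean stood for a gene with several, which mattered only for Plk1. By that rule 49 of the 55 were measured, of 14860 genes with such a row. Foxm1 shared its row with other symbols, and no row of the table used carried Pcna, Rrm2, Ccnb1, Cenpf or Ncapg alone, so these 6 have no value here.

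All 8 tumours expressed the polyoma virus middle T antigen under the MMTV promoter, which is active in mammary epithelium, in mice of a mixed FVB/CD1 background. The genotypes differed in the huntingtin gene, whose mouse alleles carried a tract of 111 glutamines in HdhQ111/Q111 tumours and of 7 in HdhQ7/Q7 tumours, on both copies. Tumours were untreated and were taken 6 weeks after they were first detected. HdhQ111/Q111 mice developed tumours sooner, so the age of the mouse and the genotype cannot be told apart. The methods of the study call the tumours biological replicates, but whether the 4 of a genotype are from 4 mice is not in the labels, and p-values speak only of the spread among these tumours. In pieces of whole tumour, fewer cells of a type and less RNA per cell cannot be told apart.

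Cells that commit to division switch on these genes in waves. In late G1 the E2F transcription factors are released from the retinoblastoma protein and turn on genes for origin licensing and DNA synthesis. In G2 a complex of MuvB proteins with B-Myb (Mybl2) and FOXM1 turns on genes for chromosome condensation, the spindle and cytokinesis. Their transcripts therefore follow the share of cells in cycle in many tissues, and the staining of Ki-67 (Mki67) is used for that purpose in breast tumours.

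Letters tied to E2F were more common in promoters of replication genes, and letters tied to MuvB in promoters of mitosis genes. RefSeq promoter windows of GRCm38.p6, from 250 bases before to 50 after the start, were found by symbol for 45 of the 55 genes. E2F letters were searched on either strand, in the form TTGGCGC, in the form TTCCCGC, in the form TTGCCGC and in the form TTCGCGC. They lay in 11 of 18 replication promoters (61.1%) and 4 of 20 mitosis promoters (20%), against 10.9% of all 27025 promoters. The cell cycle homology region (CHR, spelled TTTGAA or else with the letters TTTAAA, on either strand), the element bound by MuvB, lay in 18 of 20 mitosis promoters (90.0%) and 5 of 18 replication promoters (27.8%), against 30.6% of all. Within the bases before the start alone, CHR letters lay in 13 of 20 mitosis promoters (65.0%), against 28.1% of all. CCAAT boxes lay in 17 of 20 mitosis and 14 of 18 replication promoters, against 41.1% of all. In promoters of replication genes outside the set, E2F letters lay in 22 of 35, CHR letters in 9 and CCAAT boxes in 14. In those of mitosis genes outside the set, they lay in 12, 23 and 19 of 35. The reverse letters GCGCCAA of an E2F match run into a CCAAT box where a T follows. A match of letters is a description and not a bound site, and the letters were chosen because textbooks tie them to these classes. Shown are the 160 bases before the start, 5′ to 3′ on the strand of the gene, of 3 replication genes and 3 mitosis genes that hold such letters there. Capitals mark E2F matches in Mcm5 (chr8:75109349-75109508, plus strand), Prim1 (chr10:128015055-128015214, plus) and Pola1 (chrX:93632156-93632315, minus). In Top2a (chr11:99024190-99024349, minus), Cenpa (chr5:30666726-30666885, plus) and Plk1 (chr7:122159275-122159434, plus) they mark CHR and CCAAT matches.
Mcm5: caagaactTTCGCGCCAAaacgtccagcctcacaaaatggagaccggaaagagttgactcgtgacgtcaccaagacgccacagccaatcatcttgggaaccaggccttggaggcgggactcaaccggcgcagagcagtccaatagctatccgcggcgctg
Prim1: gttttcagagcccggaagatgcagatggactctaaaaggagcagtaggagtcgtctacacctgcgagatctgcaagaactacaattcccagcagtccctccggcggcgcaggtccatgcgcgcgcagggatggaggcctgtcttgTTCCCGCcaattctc
Pola1: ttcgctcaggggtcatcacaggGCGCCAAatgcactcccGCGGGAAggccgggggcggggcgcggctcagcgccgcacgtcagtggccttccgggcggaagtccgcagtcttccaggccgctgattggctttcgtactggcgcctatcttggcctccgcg
Top2a: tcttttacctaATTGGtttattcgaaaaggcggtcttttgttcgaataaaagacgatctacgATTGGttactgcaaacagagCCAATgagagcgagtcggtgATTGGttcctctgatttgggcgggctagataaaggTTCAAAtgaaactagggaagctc
Cenpa: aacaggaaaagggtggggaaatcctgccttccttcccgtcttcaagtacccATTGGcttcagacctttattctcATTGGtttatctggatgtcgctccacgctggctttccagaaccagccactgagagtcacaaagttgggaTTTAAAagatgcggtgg
Plk1: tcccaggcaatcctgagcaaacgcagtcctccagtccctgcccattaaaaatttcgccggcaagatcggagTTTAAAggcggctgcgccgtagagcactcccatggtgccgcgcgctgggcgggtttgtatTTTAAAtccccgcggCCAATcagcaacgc
In Mcm5 the capitals are TTCGCGC and GCGCCAA overlapping each other, and in Pola1 they are GCGCCAA and GCGGGAA. The CHR letters nearest the start began 23 bases before it in Top2a, 17 in Cenpa and 29 in Plk1, with a CCAAT box further upstream in Top2a and Cenpa and between CHR and start in Plk1.

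**Figure D1:**
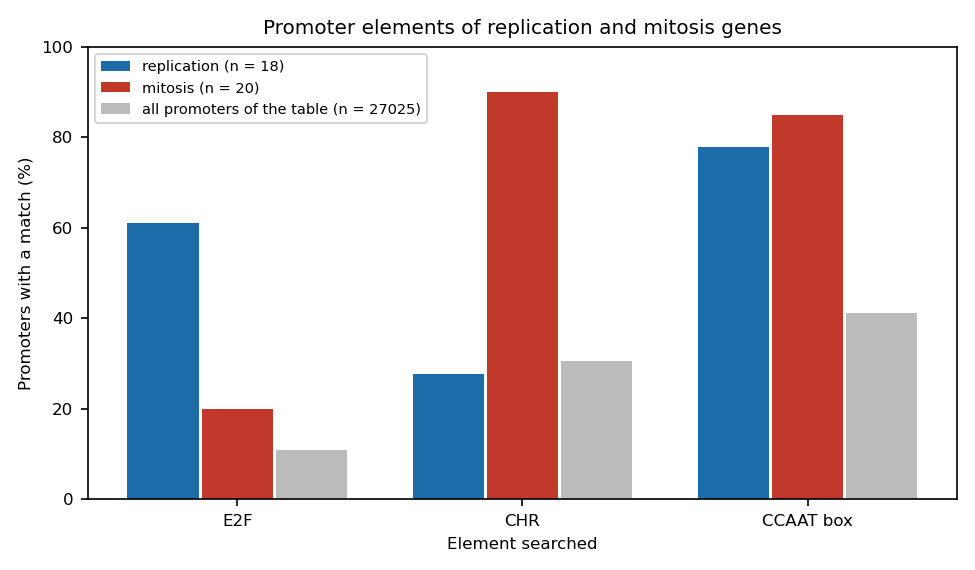
Percent of promoter windows (250 bases before to 50 after the start) that hold E2F, CHR or CCAAT letters on either strand, for replication genes, mitosis genes and all promoters of the RefSeq table. E2F letters were found in 61.1% of replication promoters and CHR letters in 90.0% of mitosis promoters, against 10.9% and 30.6% of all promoters.

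Members with E2F letters had a median log2 fold change of 0.34 between the genotypes (n = 15 measured genes), and those without had 0.37 (n = 25). For CHR letters the medians were 0.38 with a match (n = 22) and 0.30 without (n = 18). The spans of genes with and without a match overlapped for both elements.

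Every one of the 49 measured genes had a higher mean log2 signal in HdhQ111/Q111 than in HdhQ7/Q7 tumours, against 56.4% of all 23332 probe sets. The differences were small, with a median log2 fold change of 0.37 (1.29-fold) and a span from 0.18 to 0.57, against a median of 0.02 over all probe sets. Replication genes had a median of 0.31 (20 genes), mitosis genes of 0.38 (20 genes) and the cyclins, factors and markers of 0.43 (9 genes). None of the 49 passed the thresholds of the study (1.5-fold or more, and an uncorrected p of at most 0.05), which 1.02% of all probe sets passed in the higher direction. Nor did any pass an adjusted p under 0.05 in limma (range 0.542 to 0.9), which 0.0129% of probe sets did. At an uncorrected limma p of at most 0.05 stood 11 of the 49, against 5.2% of probe sets that were higher at that p. In none of them did the 4 HdhQ111/Q111 values clear the 4 HdhQ7/Q7 values, against 2.7% of probe sets. An exact permutation test over these tumours cannot give a p below 0.0286. That uncorrected count was 1 with the methods' t-test and 4 with array weights in place of 11. It also turned on single tumours: it was 1 without HdhQ111/Q111 replicate 3, replicate 4 or HdhQ7/Q7 replicate 4, 7 without HdhQ7/Q7 replicate 2, 21 without HdhQ111/Q111 replicate 2 and 26 without HdhQ111/Q111 replicate 1. The members past the thresholds of the study then numbered 6 without HdhQ111/Q111 replicate 2 and 5 without replicate 1.

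**Figure D2:**
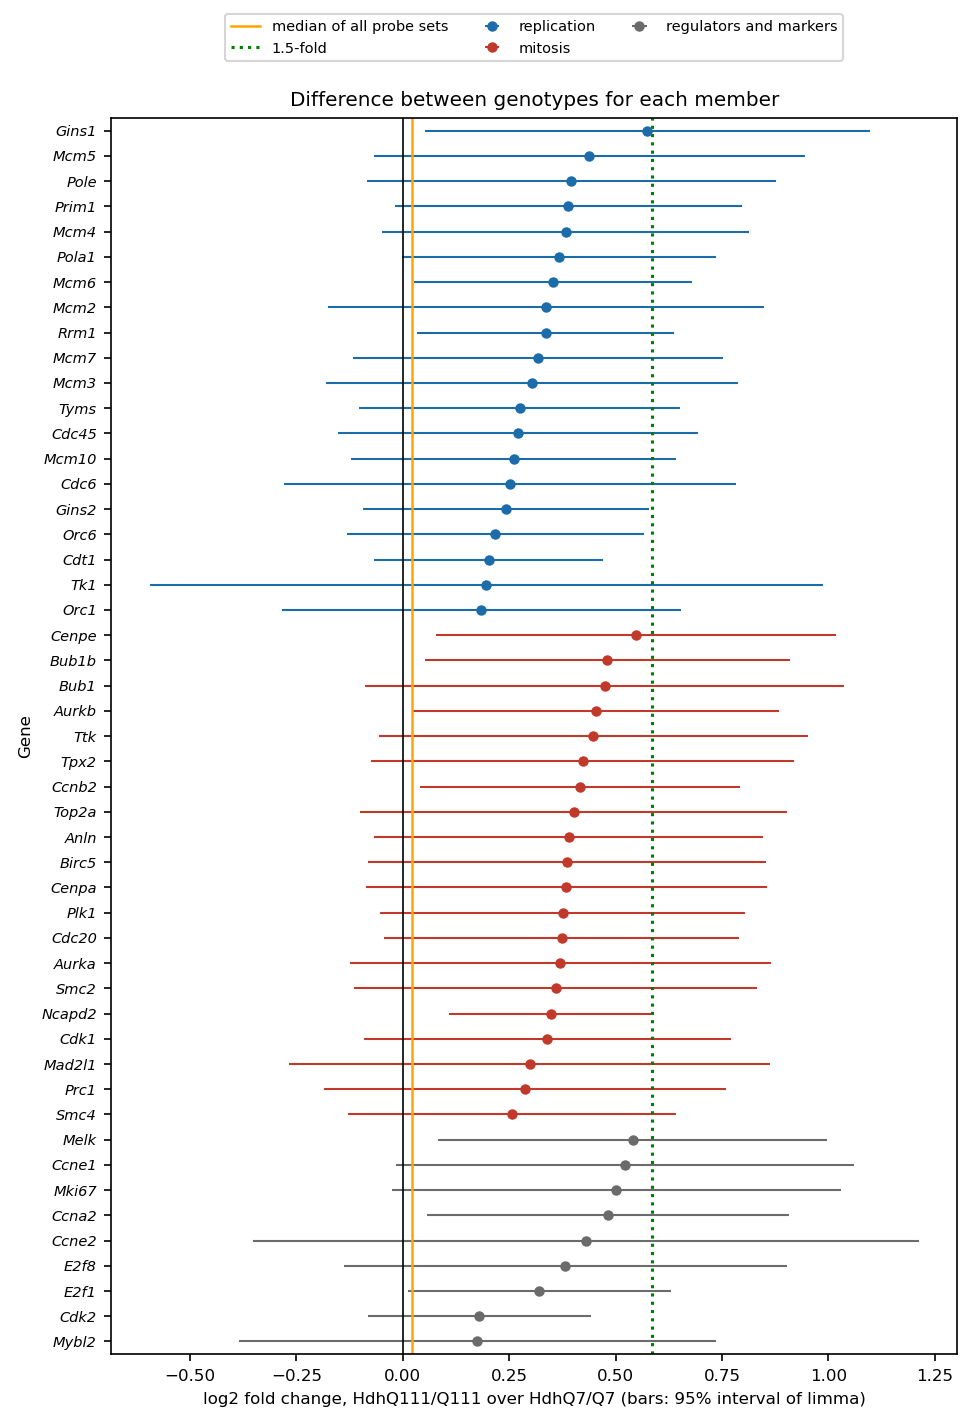
Log2 fold change of each measured gene, HdhQ111/Q111 over HdhQ7/Q7, with its 95% limma interval, ordered by size within replication genes, mitosis genes and regulators and markers (orange line: median of all probe sets, dotted line: 1.5-fold). All 49 points lie above 0, from 0.18 to 0.57, and 38 of the intervals reach 0.

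The tumours at the top and bottom of the order were nearly the same from gene to gene, while those between changed places. HdhQ111/Q111 replicates 3 and 4 were the 2 highest of the 8 tumours for 49 of 49 genes, a ranking shared by 14.7% of all genes with a row of their own. Replicate 3 was highest for 39 genes and replicate 4 for 10. HdhQ7/Q7 replicate 4 was the lowest tumour for 45 of 49 genes, against 15.9% of all genes. HdhQ111/Q111 replicate 1 lay inside the range of the 4 HdhQ7/Q7 tumours for 46 genes and below it for 3, and replicate 2 lay inside it for 39, above it for 9 and below it for 1. Averaged over the 49 genes, the log2 signal was 8.73, 8.79, 9.45 and 9.36 in HdhQ111/Q111 replicates 1 to 4, against 8.84, 8.78, 8.84 and 8.41 in HdhQ7/Q7 replicates 1 to 4. Without HdhQ111/Q111 replicates 3 and 4, a comparison added after the values were seen, the median log2 fold change was 0.05, 33 of 49 genes were higher and 0 stood at p of at most 0.05.

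**Figure D3:**
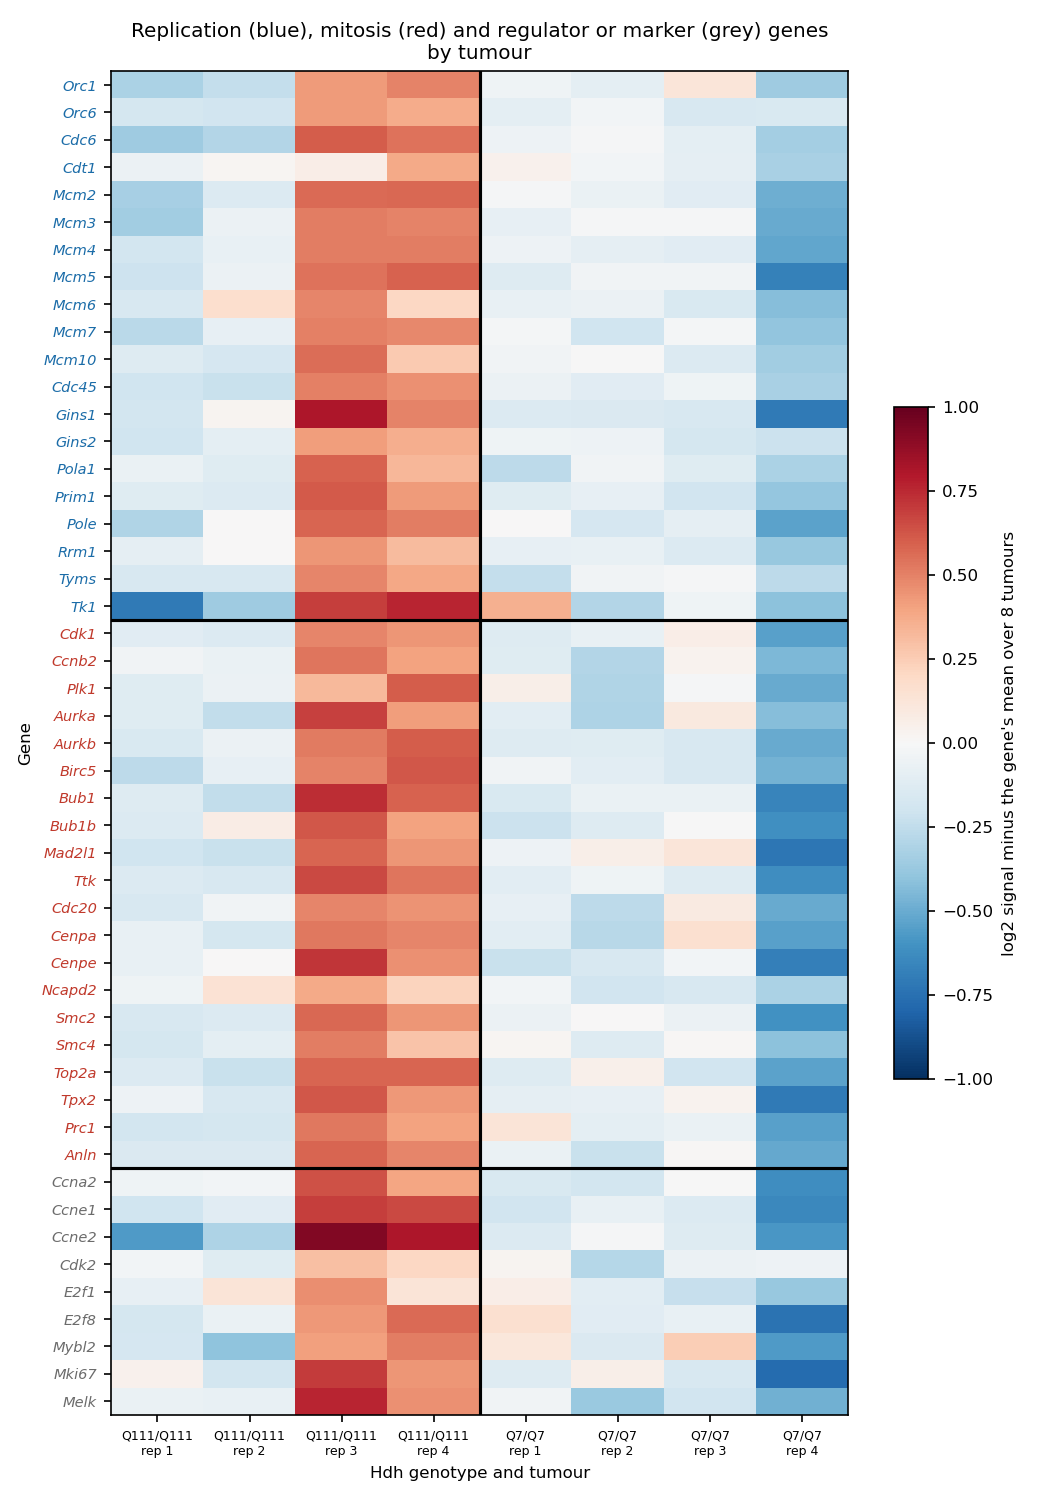
Log2 signal of the 49 measured genes in each tumour, minus the mean of the gene over the 8 tumours, with HdhQ111/Q111 replicates 1 to 4 on the left and HdhQ7/Q7 replicates 1 to 4 on the right. HdhQ111/Q111 replicates 3 and 4 are the 2 highest for all 49 genes, and HdhQ7/Q7 replicate 4 is the lowest for 45.

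Replication starts with the licensing of origins, in which Orc1, Orc6, Cdc6 and Cdt1 load the Mcm2 to Mcm7 helicase onto DNA. All 10 licensing genes were measured, with log2 fold changes from 0.18 to 0.44. Mcm5 had the largest, with log2 signals of 9.74, 9.88, 10.49 and 10.53 in HdhQ111/Q111 tumours, against 9.81, 9.90, 9.91 and 9.26 in HdhQ7/Q7 tumours. Replicates 3 and 4 of HdhQ111/Q111 stood above all other tumours, and replicates 1 and 2 lay among the HdhQ7/Q7 values. Its log2 fold change was 0.44 (SE 0.22, adjusted p = 0.659). The smallest difference was that of Orc1, the largest subunit of the origin recognition complex, at 5.67, 5.75, 6.41 and 6.48 in HdhQ111/Q111 tumours against 5.94, 5.89, 6.11 and 5.63 in HdhQ7/Q7 tumours, a log2 fold change of 0.18 (SE 0.21). HdhQ111/Q111 replicates 1 and 2 were below 3 of the HdhQ7/Q7 tumours, and replicates 3 and 4 were above all 4. Among licensing genes Mcm6 alone reached an uncorrected p of at most 0.05 (adjusted p = 0.619 in limma, exact permutation p = 0.114), with a log2 fold change of 0.35.

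Licensed helicases fire once Cdc45 and the GINS proteins join them, with the help of Mcm10. Gins1 had the largest difference of all 49 genes. Its log2 signal was 7.00, 7.21, 7.99 and 7.68 in HdhQ111/Q111 tumours, against 7.04, 7.04, 7.02 and 6.48 in HdhQ7/Q7 tumours. HdhQ111/Q111 replicate 1 fell among the HdhQ7/Q7 values, and HdhQ7/Q7 replicate 4 stood below the other 3. The means of 7.47 ± 0.45 and 6.90 ± 0.28 (SD, n = 4 each) gave a log2 fold change of 0.57 (1.49-fold, SE 0.23), with p = 0.035 and adjusted p = 0.617 in limma and an exact permutation p of 0.114. Gins2, another subunit of the same complex, had the smallest of the group at 9.13, 9.22, 9.74 and 9.68 in HdhQ111/Q111 tumours against 9.28, 9.27, 9.14 and 9.11 in HdhQ7/Q7 tumours (log2 fold change 0.24, SE 0.15). Mcm10 and Cdc45 had 0.26 and 0.27.

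Of the genes that make DNA, Pola1 and Prim1 (subunits of the primase complex that begins each strand) and Pole (the leading strand polymerase) were measured. Pole was at 8.05, 8.36, 8.94 and 8.87 in HdhQ111/Q111 tumours, against 8.36, 8.19, 8.27 and 7.82 in HdhQ7/Q7 tumours (log2 fold change 0.40, SE 0.21). Pola1 was at 8.35, 8.30, 9.01 and 8.75 in HdhQ111/Q111 tumours, against 8.16, 8.39, 8.30 and 8.10 in HdhQ7/Q7 tumours (log2 fold change 0.37, SE 0.16, exact permutation p = 0.114). HdhQ111/Q111 replicates 1 and 2 lay among the HdhQ7/Q7 tumours for Pola1, and for Pole replicate 2 was level with the highest of them. The genes that supply deoxynucleotides, Rrm1 (ribonucleotide reductase), Tyms (thymidylate synthase) and Tk1 (thymidine kinase), had log2 fold changes from 0.20 to 0.34. Rrm1 was at 10.85, 10.95, 11.38 and 11.26 in HdhQ111/Q111 tumours, against 10.86, 10.87, 10.80 and 10.57 in HdhQ7/Q7 tumours, with an uncorrected limma p of 0.0334 (adjusted p = 0.617). Tk1 varied most among them, at 7.76, 8.11, 9.15 and 9.22 in HdhQ111/Q111 tumours against 8.81, 8.17, 8.42 and 8.05 in HdhQ7/Q7 tumours. The lowest of its 8 values was in HdhQ111/Q111 replicate 1, and its log2 fold change of 0.20 (SE 0.35) turned to -0.0016 without HdhQ111/Q111 replicate 3 and to -0.025 without replicate 4. Tyms lies within 10 Mb of Htt on chromosome 5, the locus where the genotypes differ by design.

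Entry into mitosis is driven by Cdk1 with its B cyclins, by the kinases Plk1, Aurka and Aurkb and by Birc5, which works with Aurkb at centromeres. The 6 measured genes of this group had log2 fold changes from 0.34 to 0.45. Aurkb was at 10.07, 10.17, 10.74 and 10.83 in HdhQ111/Q111 tumours, against 10.10, 10.10, 10.07 and 9.73 in HdhQ7/Q7 tumours. Only HdhQ111/Q111 replicate 1 overlapped, and the log2 fold change was 0.45 (SE 0.19, adjusted p = 0.623 in limma, exact permutation p = 0.0857). Cdk1 was at 10.31, 10.29, 10.91 and 10.87 in HdhQ111/Q111 tumours, against 10.29, 10.35, 10.49 and 9.88 in HdhQ7/Q7 tumours (log2 fold change 0.34, SE 0.19). Ccnb2, a B cyclin, also stood at an uncorrected p of at most 0.05 (log2 fold change 0.42, adjusted p = 0.617).

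The spindle checkpoint holds the cell in mitosis until every chromosome is attached, through Bub1, Bub1b, Mad2l1, Ttk and their target Cdc20. All 5 were measured. Bub1b was at 8.75, 8.97, 9.51 and 9.29 in HdhQ111/Q111 tumours, against 8.68, 8.76, 8.88 and 8.28 in HdhQ7/Q7 tumours, with HdhQ111/Q111 replicate 1 alone inside the HdhQ7/Q7 range. Its log2 fold change was 0.48 (SE 0.19), with an exact permutation p of 0.0857 and an adjusted p of 0.614 in limma. Mad2l1 was at 9.96, 9.94, 10.74 and 10.61 in HdhQ111/Q111 tumours, against 10.11, 10.22, 10.29 and 9.44 in HdhQ7/Q7 tumours (log2 fold change 0.30, SE 0.25). For Mad2l1 the 2 lower HdhQ111/Q111 tumours were below 3 of the HdhQ7/Q7 tumours.

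At the kinetochore, the motor Cenpe had the largest difference of the mitosis genes. It was at 8.07, 8.14, 8.86 and 8.60 in HdhQ111/Q111 tumours, against 7.92, 7.99, 8.11 and 7.46 in HdhQ7/Q7 tumours. HdhQ111/Q111 replicate 1 was the single overlap, below HdhQ7/Q7 replicate 3, and the log2 fold change was 0.55 (1.46-fold, SE 0.21, adjusted p = 0.603 in limma, exact permutation p = 0.0571). Cenpa, the histone H3 variant that marks centromeres and, like Tyms, a gene within 10 Mb of Htt, was at 8.71, 8.61, 9.31 and 9.28 in HdhQ111/Q111 tumours against 8.68, 8.51, 8.95 and 8.24 in HdhQ7/Q7 tumours (log2 fold change 0.38, SE 0.21). The smallest p of all 49 genes belonged to Ncapd2, a condensin subunit with the narrow spread of 9.22, 9.41, 9.65 and 9.49 in HdhQ111/Q111 tumours against 9.24, 9.08, 9.11 and 8.95 in HdhQ7/Q7 tumours. Its log2 fold change was 0.35 (SE 0.10), with p = 0.00959 and adjusted p = 0.542 in limma and an exact permutation p of 0.0571. Top2a, the topoisomerase that untangles sister chromatids, was at 9.66, 9.57, 10.38 and 10.38 in HdhQ111/Q111 tumours against 9.67, 9.85, 9.61 and 9.26 in HdhQ7/Q7 tumours (log2 fold change 0.40, SE 0.22). Smc4, the condensin ATPase, had the smallest difference of the mitosis genes, at 9.34, 9.41, 10.02 and 9.79 in HdhQ111/Q111 tumours against 9.53, 9.38, 9.52 and 9.10 in HdhQ7/Q7 tumours (log2 fold change 0.26, SE 0.17). In Top2a and Smc4 HdhQ111/Q111 replicates 1 and 2 lay within the HdhQ7/Q7 values.

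Among genes of the spindle and of cytokinesis, Tpx2, which activates Aurora A on spindle microtubules, was at 9.45, 9.34, 10.12 and 9.93 in HdhQ111/Q111 tumours, against 9.40, 9.41, 9.53 and 8.79 in HdhQ7/Q7 tumours (log2 fold change 0.42, SE 0.22). Prc1, which bundles the microtubules of the midzone, was at 9.31, 9.32, 10.03 and 9.90 in HdhQ111/Q111 tumours, against 9.63, 9.40, 9.43 and 8.95 in HdhQ7/Q7 tumours (log2 fold change 0.29, SE 0.21). Anln, the contractile ring protein anillin, had a log2 fold change of 0.39. All 3 were highest in HdhQ111/Q111 replicates 3 and 4.

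Mki67, the gene of the Ki-67 antigen, was at 8.35, 8.13, 9.01 and 8.76 in HdhQ111/Q111 tumours, against 8.18, 8.37, 8.15 and 7.54 in HdhQ7/Q7 tumours. Replicates 3 and 4 of HdhQ111/Q111 were above every HdhQ7/Q7 tumour, whereas replicates 1 and 2 were below HdhQ7/Q7 replicate 2. With means of 8.56 ± 0.39 and 8.06 ± 0.36 (SD, n = 4 each), the log2 fold change was 0.50 (1.42-fold, 95% interval -0.03 to 1.03, adjusted p = 0.637 in limma, exact permutation p = 0.2). Melk, a kinase of proliferating cells, was at 7.70, 7.69, 8.53 and 8.23 in HdhQ111/Q111 tumours, against 7.74, 7.40, 7.58 and 7.29 in HdhQ7/Q7 tumours (log2 fold change 0.54, SE 0.20, adjusted p = 0.602 in limma, exact permutation p = 0.0857).

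The cyclins of S phase, Ccne1, Ccne2 and Ccna2, had log2 fold changes from 0.43 to 0.52, and their partner Cdk2 had 0.18. Ccne1 was at 8.01, 8.09, 8.90 and 8.87 in HdhQ111/Q111 tumours, against 8.02, 8.13, 8.07 and 7.56 in HdhQ7/Q7 tumours (SE 0.24). Cdk2, whose protein is present through most of the cycle, was at 9.11, 9.02, 9.45 and 9.35 in HdhQ111/Q111 tumours, against 9.17, 8.86, 9.09 and 9.09 in HdhQ7/Q7 tumours (SE 0.11). Cdk2 had the narrowest spread over tumours of the regulators, 0.59, and HdhQ7/Q7 replicate 4 was not its lowest tumour. E2f1, an S phase transcription factor chosen, like all members, with earlier results of these data known, did not pass the thresholds of the study here. It was at 8.39, 8.60, 8.94 and 8.61 in HdhQ111/Q111 tumours, against 8.54, 8.37, 8.25 and 8.10 in HdhQ7/Q7 tumours. HdhQ111/Q111 replicate 1 lay below the highest HdhQ7/Q7 tumour, and the log2 fold change was 0.32 (SE 0.14, p = 0.0431, adjusted p = 0.630 in limma, exact permutation p = 0.0571). E2f8, a repressor that E2F itself induces, was at 8.13, 8.24, 8.74 and 8.87 in HdhQ111/Q111 tumours, against 8.46, 8.19, 8.23 and 7.57 in HdhQ7/Q7 tumours (log2 fold change 0.38, SE 0.23). Mybl2, the B-Myb factor of the MuvB complex, was at 7.37, 7.13, 7.94 and 8.05 in HdhQ111/Q111 tumours, against 7.65, 7.39, 7.78 and 6.97 in HdhQ7/Q7 tumours (log2 fold change 0.18, SE 0.25). For both factors 2 HdhQ111/Q111 tumours lay among the HdhQ7/Q7 tumours.

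Replication and mitosis genes moved together over the tumours. The mean log2 signal of the 20 replication genes was 8.45, 8.57, 9.19 and 9.12 in HdhQ111/Q111 tumours, against 8.62, 8.59, 8.59 and 8.27 in HdhQ7/Q7 tumours. For the 20 mitosis genes it was 9.18, 9.20, 9.87 and 9.78 in HdhQ111/Q111 tumours, against 9.23, 9.17, 9.29 and 8.77 in HdhQ7/Q7 tumours. In both, the highest tumours were HdhQ111/Q111 replicates 3 and 4 and the lowest was HdhQ7/Q7 replicate 4. The means correlated over the 8 tumours with Pearson's r of 0.98 and Spearman's rho of 0.81, and with r of 0.98 and rho of 0.86 after the mean of each genotype was taken out. Without HdhQ111/Q111 replicates 3 and 4, which lay farthest from the median, r was 0.91 and rho 0.54 over 6 tumours, of which HdhQ7/Q7 replicate 4 stood apart from the rest. Points of one array share its overall brightness, so these values are a description. With each array centred on its median, r was 0.976, and 0.973 after the mean of each genotype was taken out.

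**Figure D4:**
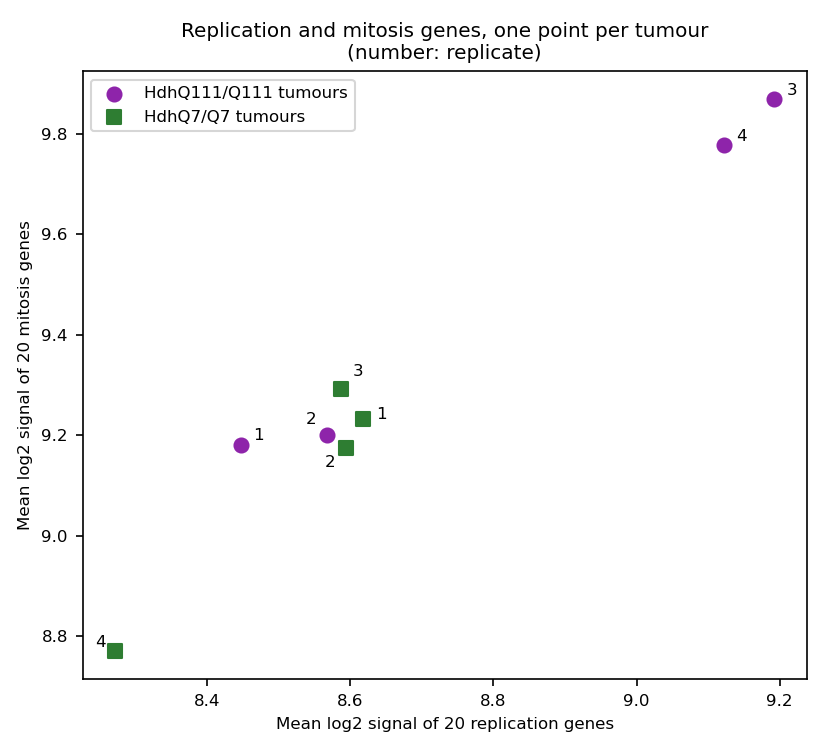
Mean log2 signal of the 20 replication genes (x axis) and of the 20 mitosis genes (y axis) in each tumour, labelled by genotype and replicate. The 8 points rise together (r = 0.98), with HdhQ111/Q111 replicates 3 and 4 at the upper right and HdhQ7/Q7 replicate 4 at the lower left.

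The gap between the 2 means overlapped between the genotypes. Mitosis minus replication was 0.68 ± 0.04 in HdhQ111/Q111 tumours and 0.60 ± 0.09 in HdhQ7/Q7 tumours (SD, n = 4 each), with ranges of 0.63 to 0.73 and 0.50 to 0.71 that overlapped. Over the 8 tumours the mitosis mean spanned 1.10 and the replication mean 0.92 on the log2 scale. Against the mean of the other members, single genes correlated with r from 0.77 to 0.99 (median 0.96), and 42 of 49 reached 0.9, as did 2.04% of 14811 other genes against the mean of the members. The 7 below 0.9 were Cdk2, Cdt1, E2f1, Tk1, Mybl2, Ncapd2 and Mcm6, which include genes of all 3 kinds. A gene had a higher r with its own class than with the other class in 14 of 20 replication genes and 17 of 20 mitosis genes. The compared values were close, such as 0.962 and 0.961 for Prc1 and 0.937 and 0.883 for Orc6. The class means themselves correlated at 0.98, and genes that move together are not independent.

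Genes of the same pathways that are not members also had higher means for the most part. Of 44 other replication genes listed (such as further polymerase and clamp loader subunits), 40 were measured and 39 had a higher mean in HdhQ111/Q111 tumours, with a median log2 fold change of 0.23. Over all probe sets, 56.4% had a higher mean and 1.02% passed the thresholds of the study in that direction. None of these 40 passed them, and 3 stood at an uncorrected p of at most 0.05, against 5.2% of probe sets higher at that p. These were Pola2 (log2 fold change 0.29), Rfc5 (0.28) and Rnaseh2a (0.26). Pold3, with -0.01, was the gene with a lower mean. Of 47 other mitosis genes, 43 were measured and 42 were higher in the mean, with a median of 0.38. Of these, 0 passed the thresholds and 11 stood at an uncorrected p of at most 0.05, again beside 5.2% of probe sets. Ncapg2 (condensin II) and Nusap1 (spindle) each had a log2 fold change of 0.51, and Cenpk (kinetochore) had 0.47. Cenpk and Kif11, a spindle motor, were the only 2 of the 43 whose genotypes did not overlap, against 2.7% of all probe sets. Cenpk was at 6.62, 6.61, 7.42 and 6.95 in HdhQ111/Q111 tumours, against 6.49, 6.56, 6.53 and 6.15 in HdhQ7/Q7 tumours (adjusted p = 0.617 in limma). Zwint, with -0.06, was lower. HdhQ111/Q111 replicates 3 and 4 were the 2 highest tumours for 38 of the 40 replication genes and 39 of the 43 mitosis genes. HdhQ7/Q7 replicate 4 was the lowest tumour for 22 of the 40 and 36 of the 43.

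Upstream of both classes act the E2F, retinoblastoma and MuvB genes. Of 16 listed, 13 were measured and 10 were higher in HdhQ111/Q111 tumours, against 56.4% of all probe sets. The 13 had a median log2 fold change of 0.10. Of them 0 passed the thresholds, against 1.02% of probe sets in the higher direction. At an uncorrected p of at most 0.05 stood 1, against 5.2% of probe sets higher at that p. That 1 was E2f7, a repressor of the E2F family like E2f8, at 7.64, 7.81, 8.06 and 8.29 in HdhQ111/Q111 tumours against 7.68, 7.59, 7.70 and 7.29 in HdhQ7/Q7 tumours (log2 fold change 0.39, adjusted p = 0.617, limma). Rbl1 (p107) had 0.29 and Rbbp4 0.13, while E2f2 had -0.03, E2f5 -0.06 and Rbl2 (p130) -0.08. The 2 highest tumours were HdhQ111/Q111 replicates 3 and 4 for 7 of the 13, and HdhQ7/Q7 replicate 4 was the lowest for 4. Whether this list differs from the others was not tested.

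Marker genes of other cells were set beside these tumours. The epithelial list (7 of 8 measured) averaged a log2 signal between 11.03 and 11.24 in HdhQ111/Q111 tumours and between 10.99 and 11.26 in HdhQ7/Q7 tumours, so the labelled tissue carried its markers in every tumour. Skeletal muscle markers ranked the tumours as the members did at the top. Of 6 listed genes 5 were measured (all but Myh4), and their mean was 6.44, 6.52, 9.32 and 9.40 in HdhQ111/Q111 tumours against 7.47, 7.88, 6.62 and 7.32 in HdhQ7/Q7 tumours. All 5, among them Ckm (muscle creatine kinase) and Acta1 (skeletal actin), had HdhQ111/Q111 replicates 3 and 4 as the 2 highest. The mean of the members correlated with the muscle mean at r = 0.80 and rho = 0.60 over the 8 tumours. The fibroblast list (8 of 8) ran from 9.29 to 9.61 in HdhQ111/Q111 tumours and from 8.37 to 8.99 in HdhQ7/Q7 tumours. Of its 8 genes, 4 passed the thresholds of the study, against 1.02% of all probe sets in the higher direction. The adipocyte list (7 of 8) ran from 6.59 to 9.91 in HdhQ111/Q111 tumours and from 6.36 to 7.19 in HdhQ7/Q7 tumours, highest in HdhQ111/Q111 replicate 1. The T and NK cell list (7 of 7) averaged 6.20 to 6.383 in HdhQ111/Q111 tumours and 6.385 to 6.60 in HdhQ7/Q7 tumours. Of its 7 genes, 2 (Cd4 and Cd2) had a higher mean in HdhQ111/Q111 tumours and 5 a lower one. The mean of that list correlated with the members at r = -0.81 and rho = -0.52. Median log2 fold changes of the macrophage, endothelial, B cell and red blood cell lists were 0.26, -0.04, 0.02 and -0.10. The part of each of these in the differences of the cell cycle genes was not tested, and a log2 signal has no zero at which a marker could be called absent.

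**Figure D5:**
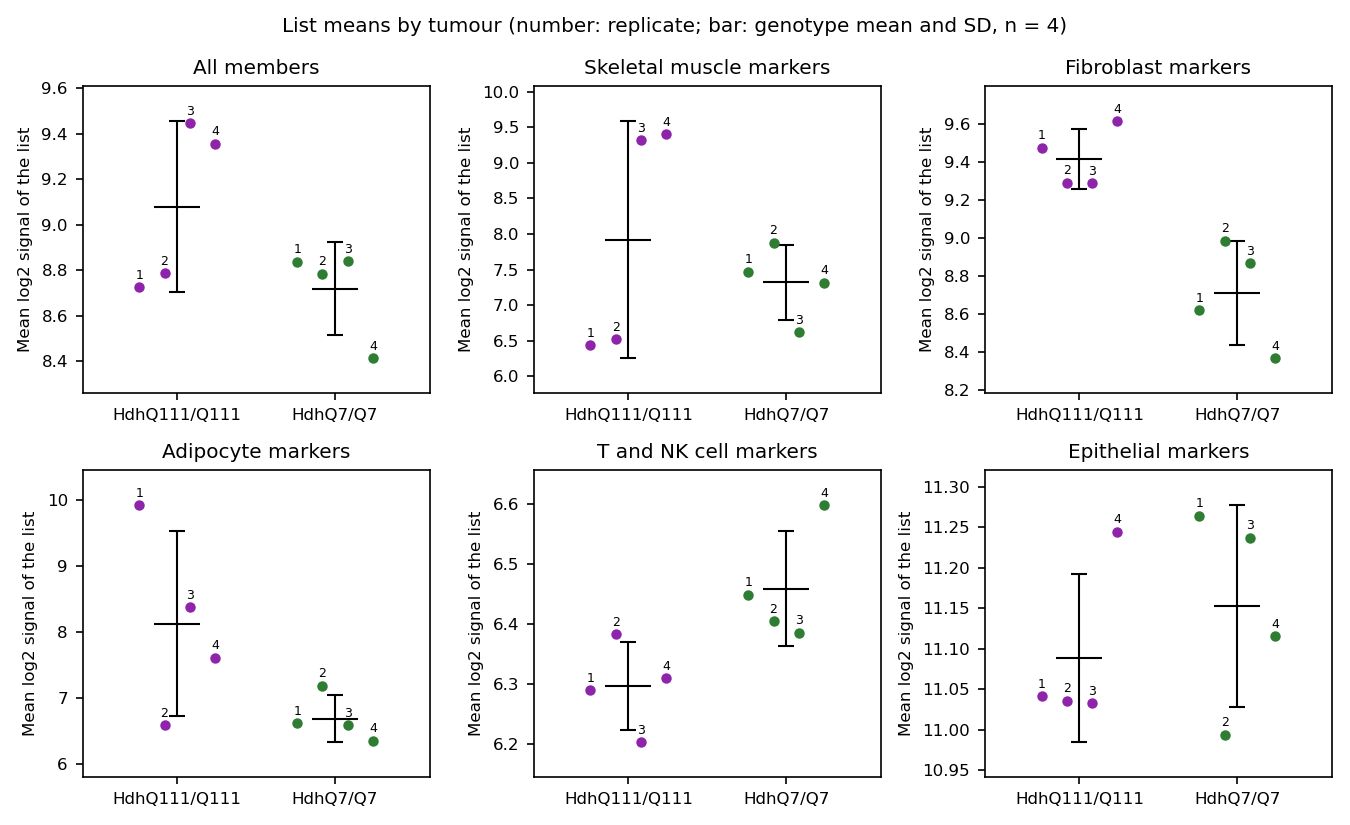
Mean log2 signal of the members and of marker lists of other cell types in each tumour, with HdhQ111/Q111 tumours left of HdhQ7/Q7 tumours and bars for the mean and SD of each genotype (n = 4). Skeletal muscle markers averaged 9.32 and 9.40 in HdhQ111/Q111 replicates 3 and 4, the tumours in which the members were highest.

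Array medians were 7.61 to 7.74 in HdhQ111/Q111 tumours and 7.58 to 7.63 in HdhQ7/Q7 tumours, and correlated with the mean of the members at r = 0.72 and rho = 0.33. HdhQ7/Q7 replicate 4, the lowest tumour for most members, had the highest array median of its genotype (7.63). With each array centred on its median, all 49 genes were still higher in the mean in HdhQ111/Q111 tumours, with a median log2 fold change of 0.30, and 7 in place of 11 stood at an uncorrected p of at most 0.05. The members lay 1.41 ± 0.32 above the array median in HdhQ111/Q111 tumours and 1.12 ± 0.23 above it in HdhQ7/Q7 tumours (SD, n = 4 each). Huntingtin itself (Htt) was at 8.92, 8.79, 8.89 and 8.65 in HdhQ111/Q111 tumours against 9.43, 9.60, 9.59 and 9.45 in HdhQ7/Q7 tumours, without overlap (log2 fold change -0.70, adjusted p = 0.0700 in limma). Any 2 of the 8 arrays correlated at 0.984 or more over all probe sets.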

How the data were processed

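Total RNA of 8 snap-frozen mammary tumours was labelled after amplification and hybridised to Affymetrix Mouse Exon 1.0 ST arrays, 1 per tumour, 4 per genotype. The authors deposited 1 log2 signal per probe set and tumour in the series table; per the labels it rests on the core meta-probe sets of mm9. The sources used here do not say how the table was normalized. The study's own gene analysis corrected background with antigenomic probes, normalized by quantiles and filtered on detection. Such steps set the scale of fold changes and can pull arrays together. Depth has no meaning for arrays, and the number of tumours limits the precision.

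Symbols came from the platform annotation, in which 14996 of 23332 probe sets carried 1 symbol, 1019 several and 7317 none. The medians of the arrays spanned 0.160, and since a further normalization was reserved for a span over 0.2, values were used as deposited. Genotypes were compared over all 23332 probe sets with limma 3.58.1 in R 4.3.3 (no trend, not robust, two-sided), with Benjamini-Hochberg adjustment over all of them. Single genes were also tested with a two-sided exact permutation test over 70 labellings. The steps were tested on simulated data. List means and motif counts were computed in Python 3.11.15, and promoters and gene positions came from RefSeq tables of GRCm38.p6, matched by symbol.

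The members, lists, motifs and tests were chosen with earlier results of these data known. Values per tumour are given for Mki67, Pcna (not measured), E2f1, the genes of largest and smallest log2 fold change in each role, and any gene past the thresholds, without overlap or lower in HdhQ111/Q111 tumours (0 members each); of other lists, the 3 genes of smallest p are named. Values of Ncapd2 and the names of Kif11 and the lower genes of other lists were added after values were seen. Alternatives were the methods' t-test, array weights, robust fitting with a trend, centring or quantile normalization of the arrays, leaving out the dimmest 40% of probe sets, all rows of a gene, a block for the replicate number, other fold thresholds, leaving out genes within 10 Mb of Htt, the shorter promoter window and leaving out each tumour.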

Additional observations from a re-analysis of the deposited data

Results flagged for a closer look

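In 8 genes HdhQ7/Q7 replicate 4 lay far below the other 3 tumours of its genotype, whose values sat close together. These were Mcm3 (8.22, others 8.64 to 8.71), Mcm4 (8.84, others 9.25 to 9.31), Mcm5 (9.26, others 9.81 to 9.91) and Gins1 (6.48, others 7.02 to 7.04), all of the replicative helicase. The others were Aurkb (9.73, others 10.07 to 10.10), Bub1 (8.26, others 8.77 to 8.86), Ttk (6.95, others 7.44 to 7.53) and Smc2 (8.12, others 8.67 to 8.73). The mean of the replication genes was low in the same tumour (8.27, others 8.59 to 8.62). All values are log2 signals. These 9 were found among 104 groups of 4 tumours, where chance flags about 1 in 20 groups, and genes that move together are not independent. No HdhQ111/Q111 tumour was flagged by the same measure, which looks for a lone tumour apart from its group. It cannot flag tumours that stand high together, as HdhQ111/Q111 replicates 3 and 4 did. The cause of the flagged values was not tested.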

How the results depend on the processing

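The count of members past the thresholds of the study was 0 in all 8 tumours, 0 to 6 on leaving out 1 tumour (5 without HdhQ111/Q111 replicate 1, 6 without replicate 2, and 2, 3 and 2 without HdhQ7/Q7 replicates 1, 2 and 3; the genes were among Gins1, Bub1, Bub1b, Cenpe, Ccne1, Mki67 and Melk) and 11 with no fold threshold. The count at an uncorrected p of at most 0.05, 11 in all tumours, was 1 with the methods' t-test, 4 with array weights, 7 with centred arrays and 1 to 26 on leaving out 1 tumour. No member reached an adjusted p under 0.05 under any alternative, by limma or by the methods' t-test. Leaving out HdhQ111/Q111 replicates 3 and 4, added after the data were seen, gave 0 genes at that uncorrected p, 33 of 49 higher and medians of 0.050 for all members, -0.018 for replication and 0.058 for mitosis. On leaving out 1 tumour, all medians kept their sign, with 0.25 to 0.47 for the members. Correlations of the replication and mitosis means without the 2 farthest tumours were 0.91, and 0.94 with genotype means removed. On leaving out 1 tumour Tk1 alone among the members changed sign, to -0.0016 without HdhQ111/Q111 replicate 3 and -0.025 without replicate 4, with a highest value of 0.464. The share of mitosis promoters with CHR letters was 65.0% without the bases after the start. The cause was not tested.

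Deviations of same-numbered tumours from their genotype means correlated at r from -0.19 to 0.03. These values cannot decide whether the numbers pair the tumours, and the labels do not say what the numbers mean. With the replicate number as a block, 49 genes were higher, 0 passed the thresholds and 6 stood at the uncorrected p. The 4 tumours per genotype and the signal of whole tumour pieces limit these values.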
